A study of Mus musculus with 24 samples.

Results

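The 7 genes described here encode the TAL1 complex of blood cells: Tal1, Lyl1, Tcf3, Lmo2, Ldb1, Cbfa2t3 and Zfpm1, among 21938 protein-coding genes of the annotation used. Accessible chromatin was read over each gene body plus flanks of 20 kb, or 50 kb for Tal1, with gene bodies from GENCODE vM21 on mm10. The accessible sites came as peaks of ATAC-seq, which cuts and labels open DNA with a transposase, and each of the 24 libraries had its own peak list. A peak was kept as reproducible where it overlapped a peak of the other library of its cell type, and reproducible peaks of all types were merged into elements. The 7 windows held 176 of 207525 elements. Tal1 had 32, Lyl1 16, Tcf3 13, Lmo2 24, Ldb1 17, Cbfa2t3 35 and Zfpm1 39. There were 12 types with 2 libraries each. Of these, 10 were primary populations of adult C57BL6 mice, male according to the methods. The bone marrow populations were CFUE, the colony forming units of the erythroid path, ERY, which are erythroblasts, CFUMK, the colony forming units of the megakaryocyte path, iMK, which are immature megakaryocytes, megakaryocyte erythroid progenitors (MEP), LSK cells, which carry Sca1 and Kit but no lineage markers and include the stem cells, common myeloid progenitors (CMP) and granulocyte macrophage progenitors (GMP), and the blood populations were MON (monocytes) and NEU (neutrophils). The remaining types were mouse lines without functional endogenous GATA1: G1E-ER4+E2, a G1E clone in which estradiol (E2) activates a fusion of GATA1 with an estrogen receptor domain, and G1E, an erythroid progenitor line that lacks GATA1. G1E-ER4+E2 is a clonal derivative of G1E, so the clone, the fusion and the hormone cannot be told apart.

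TAL1 and its paralog LYL1 are basic helix-loop-helix proteins that pair with E proteins, such as the products of Tcf3, to bind E-box sequences. LMO2 bridges this pair to a GATA factor, and LDB1 binds LMO2 and itself, which lets distant complexes meet. CBFA2T3, also called ETO2, is a corepressor that joins the complex, and ZFPM1, also called FOG1, binds GATA1 and GATA2. In mice TAL1 and LMO2 are needed for the first blood cells to form, and TAL1 later for red cells and megakaryocytes to mature.

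The sequences below are 200 bases about the centre of the strongest peak of 7 elements, on the + strand of mm10, and are shown because the results turn on them. The 5 elements of Lmo2, Tcf3, Cbfa2t3 and Zfpm1 part CFUE and ERY from LSK, GMP, MON and NEU, and both Tal1 elements were called in erythroid and in progenitor types. Capitals mark GATA motifs (AGATAA or TGATAA or AGATAG or TGATAG), E-boxes (CAGATG or CAGCTG), ETS motifs (AGGAAGT) and the fixed letters of a composite motif, CTG and GATA separated by 8 or 9 bases. Both strands were searched, so a reverse match appears as its complement, such as TTATCT, and the composite can share letters with a GATA motif. Over all 207525 elements the shares with a match in a window of this length were 32.7% for GATA, 28.4% for the E-box, 16.2% for ETS and 6.85% for the composite. RUNX letters (TGTGGT or TGCGGT) and KLF letters (CCACACC or CCGCCC) were searched as well, with matches in 25.8% and 17.8% of all elements, and are not capitalised. A match describes the letters of these windows and does not show that a factor binds there.
Tal1 -8.0 kb, chr4:115048349-115048548, before the gene, in 8 types: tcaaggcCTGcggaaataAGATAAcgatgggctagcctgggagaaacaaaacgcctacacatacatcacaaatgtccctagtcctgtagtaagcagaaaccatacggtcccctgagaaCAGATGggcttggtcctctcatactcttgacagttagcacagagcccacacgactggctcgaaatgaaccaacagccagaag
Tal1 39.4 kb, chr4:115095746-115095945, past the gene and at the distance of the known erythroid enhancer, in 10 types: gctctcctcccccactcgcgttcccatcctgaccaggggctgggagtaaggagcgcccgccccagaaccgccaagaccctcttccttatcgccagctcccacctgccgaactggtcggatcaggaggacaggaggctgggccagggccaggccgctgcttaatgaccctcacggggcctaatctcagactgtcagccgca
Lmo2 -12.0 kb, chr2:103945847-103946046, before the gene, in progenitor, megakaryocytic and innate types: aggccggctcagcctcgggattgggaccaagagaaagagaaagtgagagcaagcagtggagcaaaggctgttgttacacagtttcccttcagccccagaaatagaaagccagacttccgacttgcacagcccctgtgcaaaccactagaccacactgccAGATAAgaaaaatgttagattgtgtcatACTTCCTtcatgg
Lmo2 -0.12 kb, chr2:103957765-103957964, at the first promoter, in CFUE, ERY, CFUMK, MEP and both lines: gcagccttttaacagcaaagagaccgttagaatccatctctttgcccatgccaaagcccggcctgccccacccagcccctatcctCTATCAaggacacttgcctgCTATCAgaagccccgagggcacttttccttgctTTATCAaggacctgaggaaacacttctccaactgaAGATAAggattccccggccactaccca
Tcf3 11.7 kb, chr10:80421798-80421997, at an internal promoter, in the same 6 types as the previous element: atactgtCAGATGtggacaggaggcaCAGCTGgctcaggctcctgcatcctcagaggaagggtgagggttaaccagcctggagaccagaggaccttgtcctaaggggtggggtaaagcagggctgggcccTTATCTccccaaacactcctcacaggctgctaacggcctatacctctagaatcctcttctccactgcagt
Cbfa2t3 13.5 kb, chr8:122685550-122685749, in an intron, in those 6 types: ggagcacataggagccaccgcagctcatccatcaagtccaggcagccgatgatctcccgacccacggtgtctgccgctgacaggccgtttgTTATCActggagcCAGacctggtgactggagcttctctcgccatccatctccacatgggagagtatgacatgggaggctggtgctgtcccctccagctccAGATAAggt
Zfpm1 5.0 kb, chr8:122287043-122287242, in an intron, in those 6 types: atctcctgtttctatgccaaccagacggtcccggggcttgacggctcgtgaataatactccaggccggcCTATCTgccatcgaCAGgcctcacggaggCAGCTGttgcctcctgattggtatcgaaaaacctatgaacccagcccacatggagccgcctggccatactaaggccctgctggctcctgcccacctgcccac

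Distances are in kb from the first annotated start of the gene along its direction, negative before it. The strength of an element in a library is given as the percentile of its strongest peak among all peaks of that list, by the deposited score, with 100 the strongest. This scale compares ranks within lists and not amounts of open chromatin.

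Peak lists held 84341 to 230877 peaks in primary libraries and 52720 to 70306 in the lines, and read depth was not given in the files. The share of a list's peaks that were reproducible was between 48.5% and 89.8%. Promoters of 10 erythroid marker genes were called for 10 of 10 in CFUE, ERY and G1E-ER4+E2, for 8 in G1E for 9 in MEP and CFUMK and for 6 to 8 in iMK, LSK, CMP and GMP, against 1 to 3 in MON and NEU. Both NEU libraries had called promoters for 10 of 10 B cell genes, against 1 to 6 in the other types, and 6 to 7 of 10 granulocyte genes. Both iMK libraries had them for 9 of 10 granulocyte and 10 of 10 monocyte genes, as CFUMK (9 to 10 and 9), CMP (8 to 10 and 9) and GMP (10 and 10) did. Only 3 to 4 of 10 megakaryocyte genes had one in iMK, with Pf4, Itga2b and Vwf called in both libraries and Gp9 in replicate 2, against 6 in CFUMK. MON and NEU had 2 to 4, ERY 3, the lines 3 to 4 and CFUE 3 to 6, so this list did not set iMK apart from them. GMP had 5, MEP 5 to 6, LSK 6 to 7 and CMP 7 to 9. The part that any other cells in the NEU and iMK libraries play in the results was not tested, and values without NEU or iMK are given where they change a result. The methods call replicates biological but allow for separate aliquots of one group of mice, and neither they nor the labels say which applies to these libraries, so p-values measure the spread between libraries, which may be technical.

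Elements of the 7 windows were called in erythroid types more often than elements of the whole genome were. CFUE had 75 of the 176 elements (42.6%) and ERY 74 (42.0%), whereas these types had 19.7% and 20% of all 207525 elements. G1E-ER4+E2 had 66 (37.5%, against 16.3% of all elements) and G1E 58 (33.0%, against 13.4%). In the other types the share was nearer to that of all elements, as in CFUMK with 95 (54.0%, against 59.5%), GMP with 88 (50%, against 54.9%), CMP with 78 (44.3%, against 52.0%), iMK with 78 (44.3%, against 47.1%), MEP with 63 (35.8%, against 36.6%), LSK with 56 (31.8%, against 33.3%), NEU with 50 (28.4%, against 20.9%) and MON with 44 (25.0%, against 25.2%). Elements in CFUE or ERY and in none of LSK, CMP, GMP, MON and NEU numbered 39 (22.2%), against 7.37% of all elements. Elements in LSK, CMP or GMP but in neither CFUE nor ERY numbered 62 (35.2%), against 54.4%. These shares are descriptions without a test, since elements of a window are not independent. At the other end, 17 elements (9.66%, against 5.10% of all elements) were called in all 12 types, and 46 (26.1%, against 30.0%) in 1 type.

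**Figure D1:**
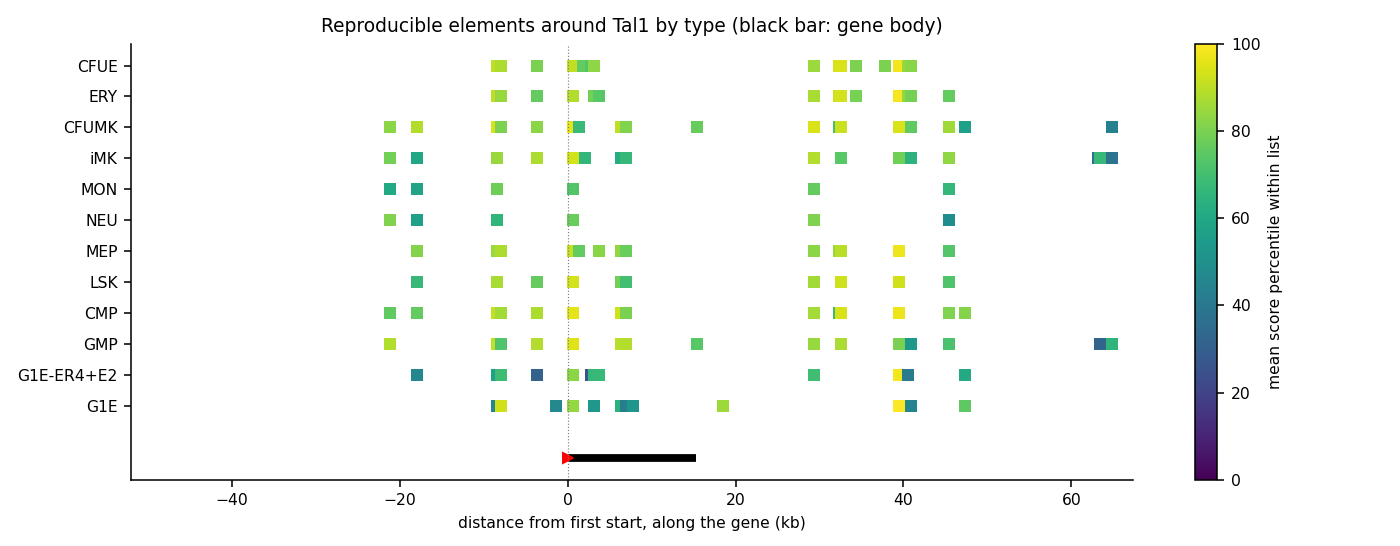
Reproducible elements around Tal1 by distance from its first start (kb), with types in rows and colour for the mean score percentile over both libraries of the type. The element at 39.4 kb is present in 10 types and absent from MON and NEU, and that at 3.1 kb is present in CFUE, ERY, G1E-ER4+E2 and G1E alone.

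Promoters separated the types little. A promoter was called where a peak centre lay within 500 bp of an annotated start, and 166 of 168 calls over 7 genes and 24 libraries were positive. Tal1, Lyl1, Tcf3, Lmo2, Ldb1 and Zfpm1 were called in all 24 libraries, as were 37.2% of the 21938 genes. Cbfa2t3 was called in 22 and missed in both ERY libraries. Neither CFUE library had a peak at its first promoter. CFUE had reproducible elements at an internal promoter, at 20.5 kb (84.3 and 77.4) and 20.8 kb (83.1 and 74.8), where no ERY library had a peak. Calls within 250 bp gave the same 166. Behind these calls, individual promoters differed by type, as described for Lmo2, Ldb1, Tcf3 and Cbfa2t3. Elements called in 4 to 10 types that are no promoters were chosen for description after their types were seen.

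Tal1 (ENSMUSG00000028717.12, chr4:115056426-115071755, + strand) had elements in all types at its promoter, 0.58 kb, and at -8.5 kb. The element at 39.4 kb was 1129 bp wide and among the strongest of several lists. Its percentile was 98.7 and 98.0 in CFUE libraries, 98.4 and 98.6 in ERY, 97.4 and 97.2 in MEP, 98.5 and 98.1 in G1E-ER4+E2, and 99.6 and 99.1 in G1E. It was lower in GMP (83.8 and 75.7) and iMK (79.4 and 77.4), and neither MON nor NEU had a reproducible peak, with only MON replicate 1 showing a peak at 64.6. Elements at 6.3 kb and 6.9 kb in the gene were called in CFUMK, iMK, MEP, LSK, CMP, GMP and G1E but not in CFUE or ERY. At 6.3 kb ERY replicate 2 had a peak of 68.9 without support from its partner library, against 59.2 and 64.5 in iMK.

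The erythroid types had Tal1 elements of their own. An internal promoter at 3.1 kb was called in CFUE (85.2 and 80.5), ERY (80.8 and 76.8), G1E-ER4+E2 (68.1 and 64.8) and G1E (54.1 and 52.8) and in no library of the other 8 types. An element at 40.6 kb was called in CFUE, ERY and G1E-ER4+E2. At -8.0 kb, where the printed sequence has a GATA motif, an E-box and a composite motif, the percentile was 66.3 and 71.8 in G1E-ER4+E2, against 92.2 and 93.3 in G1E, the highest of the 24 libraries. MON and NEU had 6 of the 32 Tal1 elements each, against 11 to 19 in the other types. Of all elements MON had 25.2% and NEU 20.9%, against 13.4% to 59.5% in the other types. Within 50 kb the MON and NEU libraries had 12 to 14 peaks, against 18 to 39 in the other 20 libraries, with no overlap. Per 100000 peaks of the list these numbers did overlap, at 7.94 to 16.6 in MON and NEU, against 13.0 to 43.6.

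Lyl1 (ENSMUSG00000034041.4, chr8:84701457-84704715, + strand) is a short gene, and 8 of its 16 elements lay at promoters of its neighbours Trmt1, Nacc1, Nfix and G430095P16Rik. Its own promoter, 0.30 kb, was called in all 12 types, at 98.7 to 99.3 in CFUE and ERY and at 72.6 to 86.1 in NEU. An element at -1.3 kb was strongest in LSK (95.3 and 98.6) and GMP (97.2 and 96.6). It was absent from both MEP libraries and from both G1E-ER4+E2 libraries, and present in G1E at 57.5 and 27.5. An element in an intron at 2.1 kb, with a GATA match, was strongest in CMP (94.4 and 95.6) and called in CFUMK, iMK, MEP and both lines, but in no CFUE, ERY or LSK library. The MON libraries each had a peak in this element (87.8 and 82.3), but these peaks did not overlap and MON was not called.

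Tcf3 (ENSMUSG00000020167.14, chr10:80409514-80433647, - strand), the E protein gene, had the fewest elements, 13, and 4 of them were called in all types, of which 3 belong to promoters of Mbd3 and Uqcr11. Its first promoter, -0.44 kb, was at 90.1 or above in every library. A second promoter inside the gene, at 11.7 kb, was at 98.5 and 97.9 in CFUE libraries, 97.8 and 97.3 in ERY, 95.5 and 94.3 in MEP, 90.2 and 91.9 in CFUMK, 82.8 and 82.6 in G1E-ER4+E2, and 91.6 and 89.5 in G1E. None of the 12 libraries of iMK, MON, NEU, LSK, CMP and GMP had a peak there. The sequence printed for this promoter has 1 GATA motif and 2 E-boxes.

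Lmo2 (ENSMUSG00000032698.15, chr2:103957986-103981878, + strand), which encodes the bridging LIM-only protein, had elements of erythroid types and elements that CFUE and ERY lacked. Its distal promoter at -0.12 kb was called in CFUE (91.0 and 86.5), ERY (87.4 and 85.4), MEP (74.2 and 74.4), CFUMK (71.7 and 67.8), G1E-ER4+E2 (11.8 and 16.6) and G1E (34.4 and 42.5), and CMP replicate 1 alone had a further peak, at 71.1. The printed sequence of this promoter holds 4 GATA motifs. The element beside it at -0.94 kb reached 96.8 and 94.7 in CFUE libraries, 98.2 and 98.3 in ERY and 97.5 and 96.7 in MEP, and no peak was called in iMK, MON, NEU, LSK or GMP. A further element within 500 bp of the first start, at 0.36 kb, was called in CFUMK (70.6 and 69.2), iMK (62.1 and 64.8) and GMP (85.2 and 79.5). No CFUE or ERY library had a peak at 0.36 kb. Elements at -12.9 kb and -12.0 kb were called in CFUMK, iMK, MON, NEU, LSK, CMP and GMP and had no peak in any library of CFUE, ERY or MEP. At -12.0 kb, where the sequence has a GATA and an ETS motif, the percentile was 69.8 and 70.7 in MON and 76.6 and 74.2 in NEU, against 94.7 and 87.6 in LSK and 94.5 and 91.7 in GMP. The inner promoter at 11.6 kb was open in all types, at 64.2 to 96.2, and an element 12.2 kb from the first start followed the same 7 types as the upstream pair.

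Ldb1 (ENSMUSG00000025223.15, chr19:46031570-46045214, - strand), the self-associating cofactor, had 2 main promoters. The promoter at 5.5 kb was called in all 12 types, at 67.8 to 95.8. The first promoter, 0.12 kb, was called in CFUMK, iMK, MON, NEU, LSK, CMP, GMP and G1E-ER4+E2. No ERY or MEP library had a peak there, and CFUE replicate 1 (79.4) and G1E replicate 2 (23.9) had one without support from their partner library. Elements called in CFUE and ERY and in no other type lay at 5.3 kb, next to the second promoter, and at -15.9 kb inside the neighbour Pprc1. An intron element at 7.9 kb with a GATA match was called in CFUE, CFUMK, MEP and G1E-ER4+E2 and had no peak in either G1E library.

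Cbfa2t3 (ENSMUSG00000006362.16, chr8:122625141-122699109, - strand), the corepressor gene, had no reproducible peak at its first promoter in CFUE, ERY, MON and NEU. Elements in its long body were strong in CFUE and ERY. At the first promoter, -0.14 kb, no CFUE or ERY library had a peak, against 88.6 and 97.5 in LSK, 95 and 94.5 in CMP, and 93.4 and 88.9 in GMP. The MEP libraries were at 80.8 and 74.4, below all 6 LSK, CMP and GMP libraries. No NEU library had a peak at the first promoter either, and MON had one in replicate 2 alone (74.4). It was called in CFUMK, iMK and both lines, at 74.5 and 75.5 in G1E-ER4+E2 and 84.4 and 85.9 in G1E. An element at -1.7 kb also had no peak in CFUE or ERY and was at 91.2 to 96.6 in LSK, CMP and GMP. The intron element at 13.5 kb was at 95.5 and 94.7 in CFUE libraries, 97.9 and 97.7 in ERY, 95.3 and 94.2 in MEP, and 85.4 and 92.6 in CFUMK. Both lines had it, at 79.2 and 74.1 in G1E-ER4+E2 and 68.3 and 77.8 in G1E, and the only other library with a peak was CMP replicate 1 (78.4). Further elements at 62.4 kb (CFUE and ERY), 63.0 kb (CFUE, ERY and MEP) and 80.3 kb (CFUE, ERY, CFUMK, MEP and G1E-ER4+E2) were missing from LSK, CMP, GMP, MON and NEU. The element at 80.3 kb, past the end of the gene, was at 97.6 and 97.3 in ERY.

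Zfpm1 (ENSMUSG00000049577.15, chr8:122282141-122337251, + strand), the gene for the GATA1 partner FOG1, had the most elements, 39. It lies on the chromosome of Cbfa2t3, and a long annotated model, Gm20388, covers both windows. Its promoter peaks at -0.77 kb and -0.24 kb were in all 12 types, with the second at 92.7 or above in all 24 libraries. The intron element at 5.0 kb was at 97.7 and 97.6 in CFUE libraries, 96.4 and 95.7 in ERY, 93.7 and 88.8 in MEP, 88.1 and 89.8 in CFUMK, 80.6 and 84.7 in G1E-ER4+E2, and 61.7 and 70.9 in G1E, with no peak in the other 12 libraries. The element at 39.7 kb had this distribution with CMP added (93.9 and 92.5). Before the gene, an element at -4.7 kb was confined to CFUE (94.8 and 93.6) and ERY (93.3 and 92.5), and that at -8.1 kb was called in CFUE, ERY, CFUMK, MEP and G1E-ER4+E2. MON and NEU had 8 and 6 of the 39 Zfpm1 elements, against 9 in LSK and 11 to 21 in the other 9 types. Of all elements MON had 25.2% and NEU 20.9%, against 33.3% in LSK and 13.4% to 59.5% in the other 9 types. None of the intron elements at 5.0, 12.2, 27.4 and 39.7 kb had a peak in MON or NEU. Other intron elements were called there. That at 32.9 kb was called in MON (83.5 and 75.0) and NEU (59.0 and 27.1), those at 33.5 and 36.2 kb in MON and that at 2.8 kb in NEU.

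**Figure D2:**
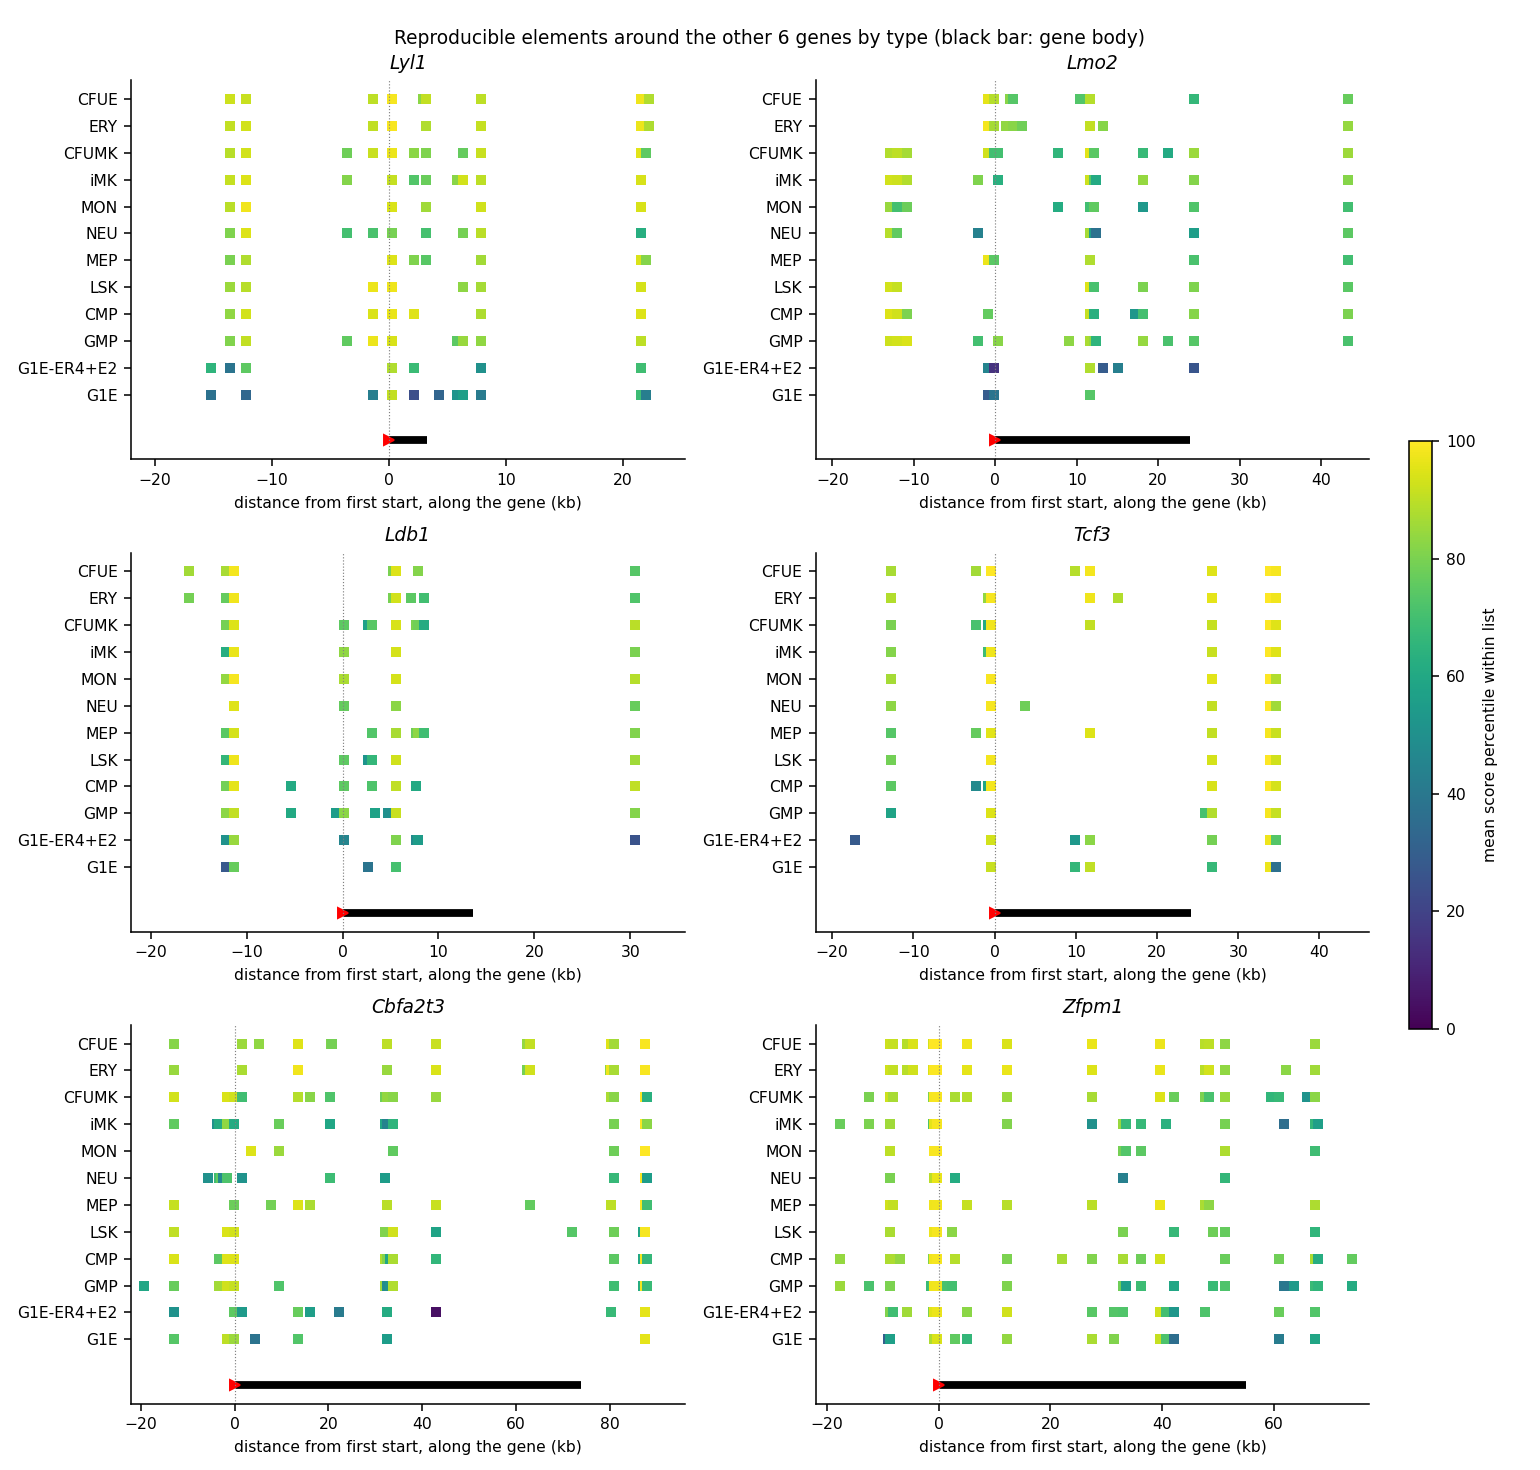
Reproducible elements around Lyl1, Lmo2, Ldb1, Tcf3, Cbfa2t3 and Zfpm1 by distance from the first start (kb), with types in rows and colour for the mean score percentile over both libraries. At Lmo2 the pair at -12.9 and -12.0 kb is present in 7 types and absent from CFUE, ERY and MEP, where the element at -0.94 kb is strong.

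Across the 7 genes, 4 elements shared exactly one set of types, CFUE, ERY, CFUMK, MEP, G1E-ER4+E2 and G1E. They were the Lmo2 distal promoter at -0.12 kb, the Tcf3 internal promoter at 11.7 kb, the Cbfa2t3 intron element at 13.5 kb and the Zfpm1 intron element at 5.0 kb. They made up 2.27% of the 176 elements, whereas 386 elements (0.186%) of the whole set had these types. This set of types was taken from the elements themselves after they were seen, so these shares are not a test. All 4 held a GATA motif, as did 85.2% of the 386 elements, and 2 of the 4 held the composite motif, against 39.4% of the 386. In a wider group, the 20 elements in both CFUE and ERY and in none of LSK, CMP, GMP, MON and NEU, a GATA motif was found in 60%, close to the 55.0% of the 6062 elements with this distribution in the whole set. The GATA share of all 176 elements, 27.8%, was below the 32.7% of all elements. Elements of MEP that were absent from GMP numbered 27 (15.3%, against 15.3% of all elements) and held a GATA motif in 66.7%, against 67.6% of all such elements. The 52 elements of GMP absent from MEP (29.5%, against 33.6% of all elements) held it in 19.2%, against 22.8% of all such elements.

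**Figure D3:**
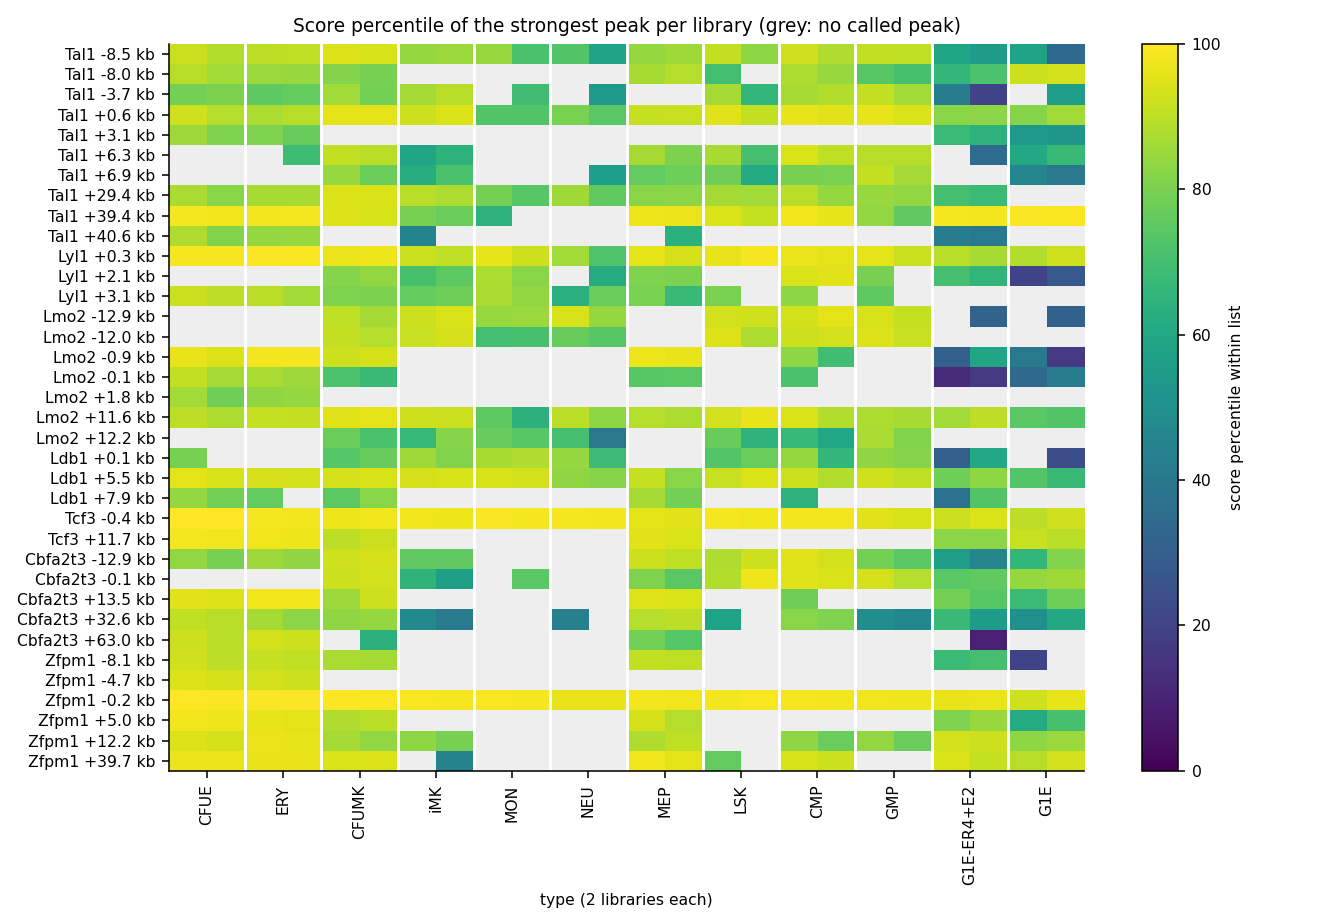
Score percentile of the strongest peak (colour, 0 to 100) in each of the 24 libraries for 36 elements of the 7 genes, with grey for no called peak. The libraries of a type match in most cells, and the 4 elements Lmo2 -0.1, Tcf3 11.7, Cbfa2t3 13.5 and Zfpm1 5.0 kb are grey in iMK, MON, NEU, LSK and GMP.

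The comparison of G1E-ER4+E2 with G1E sets a line with restored GATA1 activity beside one without it. The clone, the fusion and the hormone differ together, so no difference below can be credited to GATA1 alone. Of the 176 elements, 25 were called in G1E-ER4+E2 alone of the 2 lines (14.2%, against 6.49% of all elements). G1E alone had 17 (9.66%, against 3.54%) and both lines had 41 (23.3%, against 9.82%). All of these shares were above those of all elements, so no excess of differences between the lines is read from them. The Tal1 elements at 6.3 and 6.9 kb were called in G1E and not in G1E-ER4+E2, although G1E-ER4+E2 replicate 2 had a peak of 34.9 at 6.3 kb. In the other direction, the Tal1 element at 29.4 kb was at 70.3 and 68.3 in G1E-ER4+E2 and had no peak in G1E. The Zfpm1 element at -5.6 kb, called in CFUE and ERY as well, was at 86.5 and 84.7 in G1E-ER4+E2 with no peak in G1E, and so was the Zfpm1 element at 47.6 kb (71.0 and 72.9 in G1E-ER4+E2). Of elements called in G1E-ER4+E2 alone of the lines, 36.0% held a GATA motif (42.9% over all such elements), and of those in G1E alone 11.8% did (61.3% over all such elements).

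**Figure D4:**
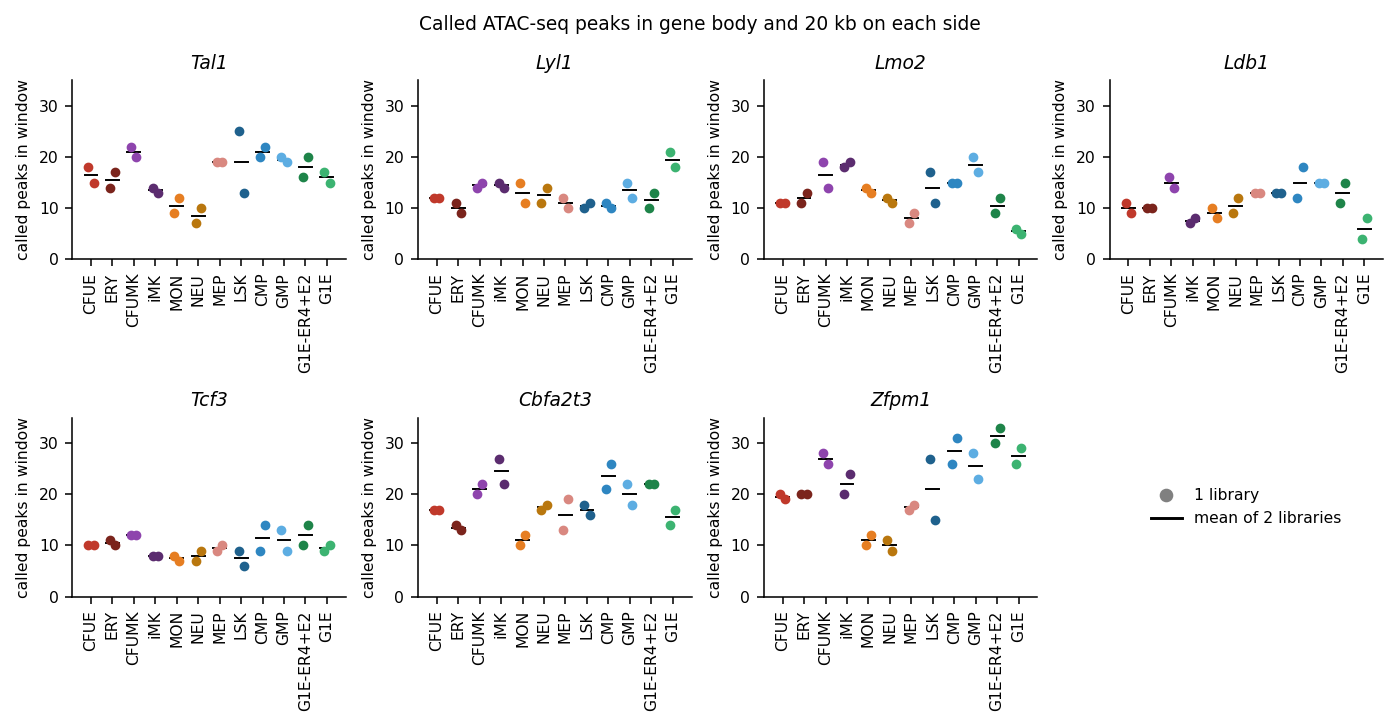
Called peaks over each gene body with flanks of 20 kb for each library (points, coloured by type) with the mean of 2 libraries (bar). In these numbers, not scaled to list length, Tal1 and Zfpm1 are lowest in MON and NEU, with 7 to 12 peaks per library for each gene (per 100000 peaks, Tal1 in NEU replicate 2, at 11.9, is above both iMK libraries, at 8.13 and 6.62), and the Lyl1 points of G1E (21 and 18) lie above all others.

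Numbers of peaks per gene were compared in one limma fit over 17042 genes, on the log2 number per 100000 peaks of the list in the body and 20 kb on each side, also for Tal1. Peaks at promoters of neighbours inside a window were counted too. Such promoters held 8 of the 16 Lyl1 elements and 3 of the 13 Tcf3 elements. Tal1 had 18, 15, 14 and 17 peaks in CFUE and ERY, and a lowest, median and highest of 13, 20 and 25 in LSK, CMP and GMP. The median raw number was higher in CFUE and ERY for Tcf3 (10 against 9) and Lyl1 (11.5 against 11) and lower for the other 5 genes. Relative to list length the order turned for Tal1. It was at 13.0 to 17.4 peaks per 100000 in CFUE and ERY, against 8.66, 10.2 and 12.4 as lowest, median and highest in LSK, CMP and GMP, without overlap. The fitted difference was 0.50 on the log2 scale (SE 0.17, limma adjusted p = 0.0159).

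In this contrast 5 of the 7 genes were higher in erythroid types, beside 39.0% of all genes tested. Tcf3 had 7.48 to 10.2 peaks per 100000 in CFUE and ERY, against 4.03, 4.85 and 6.86 in LSK, CMP and GMP, and Lyl1 had 8.98 to 12.1, against 4.90, 5.74 and 8.13, both without overlap. The limma differences were 0.82 for Tcf3 (SE 0.17, adjusted p = 0.00032), 0.69 for Lyl1 (SE 0.17, adjusted p = 0.0012), 0.49 for Zfpm1 (SE 0.14, adjusted p = 0.0041) and 0.40 for Cbfa2t3 (SE 0.16, adjusted p = 0.040). The groups overlapped for Zfpm1 and Cbfa2t3, and Lmo2 and Ldb1 did not pass. The share of all genes without overlap was not counted, here or in the comparisons below, so a lack of overlap only describes a gene. The median over all genes was 0.30, so the excess of the members was smaller than these values, and with each list scaled to its median gene only Tcf3 (0.53, limma adjusted p = 0.0047) and Lyl1 (0.39, limma adjusted p = 0.026) passed. That scaling gave 3664 genes higher and 4456 lower, against 6639 and 2995. With an equal number of the strongest peaks from each list, Lyl1 (0.03), Tal1 (0.18) and Cbfa2t3 (0.22) did not pass. Tal1 did not pass with a 10 kb window (0.35, limma adjusted p = 0.23), nor without CFUE replicate 2 (limma adjusted p = 0.061) or ERY replicate 2 (limma adjusted p = 0.096), nor Cbfa2t3 without any of 7 libraries: CFUE replicate 2, ERY replicate 1, ERY replicate 2, LSK replicate 1, CMP replicate 1, GMP replicate 1 and GMP replicate 2 (0.30 to 0.42). Cbfa2t3 also missed the threshold with neither trend nor robust variance (limma adjusted p = 0.067). For Tal1, peaks over 1 kb from a start gave -0.25 (limma adjusted p = 0.39), the reverse direction. Among libraries numbered together in the labels, which hold CMP and GMP but not LSK, 4 genes passed at 0.46 to 0.75 and Cbfa2t3 missed the threshold at 0.40 (limma adjusted p = 0.051), which it passed when the 2 sequences of library numbers were a term (limma adjusted p = 0.047).

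Against CFUMK and iMK, 4 members were higher in CFUE and ERY, beside 36.4% of all genes. They were Tcf3 (0.80, SE 0.19), Tal1 (0.69, SE 0.19), Ldb1 (0.66, SE 0.21) and Zfpm1 (0.49, SE 0.15), with limma adjusted p of 0.0012, 0.0035, 0.0096 and 0.0083. The libraries did not overlap for these 4 genes, nor for Lyl1, which was not called (0.38, limma adjusted p = 0.083). Without both iMK libraries none of the 4 passed, at 0.59 for Tcf3 and 0.27 for Ldb1, and with median scaling only Tcf3 did, at 0.50. With a 10 kb window Tal1 (0.56) and Ldb1 (0.38) did not pass, nor Tal1 with distal peaks (0.03). CFUMK and iMK against LSK, CMP and GMP gave no call for the members, whose differences lay between -0.38 and 0.31, and a call for 0.229% of all genes in limma, 39 in number, with 1156 at an unadjusted p under 0.05.

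MON and NEU had few Zfpm1 peaks, 10 and 12 in MON and 11 and 9 in NEU, against 15, 26.5 and 31 as lowest, median and highest in LSK, CMP and GMP. The scaled numbers, 6.11 to 10.7 per 100000 in MON and NEU against 11.1 to 15.2, did not overlap, and the difference was -0.49 (SE 0.14, limma adjusted p = 0.0103). It was the only member of 7 called lower, beside 12.8% of all genes. Without both NEU libraries, where B cell promoters were called, it was -0.71 and passed (limma adjusted p = 0.0051), and without MON replicate 1 it was -0.36 and did not pass (limma adjusted p = 0.087). It also missed the threshold with reproducible peaks (-0.13), a 10 kb window (-0.33) or only these groups fitted (-0.50, limma adjusted p = 0.052). Tal1 was at -0.34 (limma adjusted p = 0.145). Lyl1 was higher, as were 13.9% of all genes, at 8.43 to 16.6 per 100000 in MON and NEU against 4.90 to 8.13 (difference 0.78, SE 0.17, limma adjusted p = 0.0015), and it did not pass without both NEU libraries (0.51, limma adjusted p = 0.076) or with an equal number of peaks (0.23). All MON and NEU libraries were numbered together with LSK replicate 2 alone of the progenitors, and among these 5 libraries the differences were -0.30 for Zfpm1 and 0.36 for Lyl1. With 1 progenitor library this comparison is too small to bear on either call.

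In MEP, Lmo2 had 7 and 9 peaks, against 20 and 17 in GMP, and it was the only member of 7 called lower, beside 2.38% of all genes. The difference was -0.83 (SE 0.24, limma adjusted p = 0.037). It did not pass when any of these 4 libraries was left out (-0.65 without MEP replicate 1, -1.01 without MEP replicate 2, -0.92 without GMP replicate 1 and -0.75 without GMP replicate 2) or when the window was 10 kb (-0.59) or 50 kb (-0.02), or with distal peaks (-1.02). In the lines, Lyl1 had 10 and 13 peaks in G1E-ER4+E2, against 21 and 18 in G1E, and Ldb1 had 11 and 15, against 4 and 8. The shared fit called Lyl1 lower in G1E-ER4+E2 (-1.0, limma adjusted p = 0.0070, beside 4.92% of all genes) and Ldb1 higher (0.87, limma adjusted p = 0.038, beside 11.5%), but with only these 4 libraries fitted neither passed, at limma adjusted p of 0.145 and 0.310. Leaving out G1E-ER4+E2 replicate 1 or G1E replicate 1 ended both calls (-0.90 and -0.83 for Lyl1, 1.01 and 0.47 for Ldb1), and leaving out G1E-ER4+E2 replicate 2 ended that of Ldb1 (0.74). Ldb1 also missed the threshold with a window of 10 kb (0.67) or 50 kb (0.51), with median scaling (0.67) and with neither trend nor robust variance, and Lyl1 with distal peaks (-0.36).

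**Figure D5:**
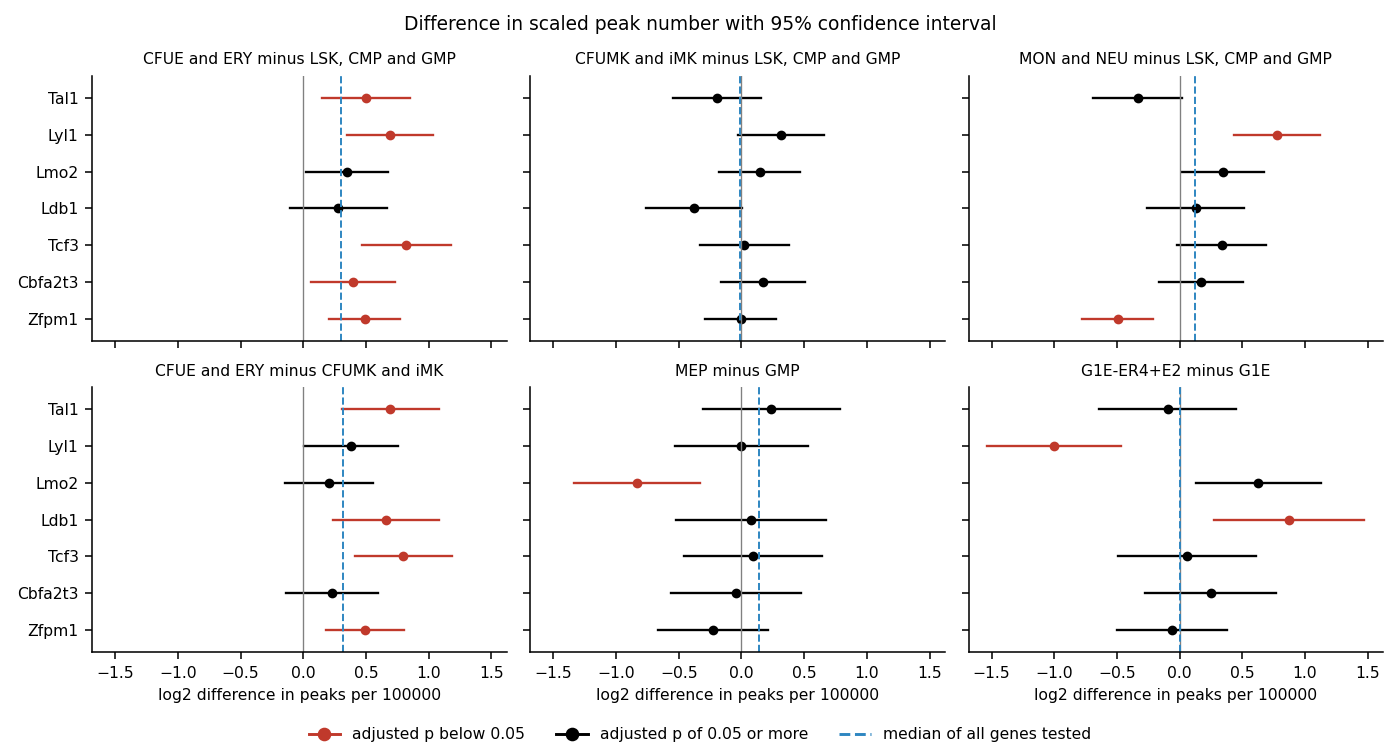
Difference in log2 peaks per 100000 (points) with 95% confidence intervals for the 7 genes in 6 comparisons, in red where the limma adjusted p was below 0.05, and with the median of all genes dashed. Most erythroid differences lie right of 0 and near the dashed line at 0.30, with Tcf3 (0.82) and Lyl1 (0.69) farthest from it.

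A list of 35 genes around the complex, which holds partners, paralogs, inhibitors and cofactors, gives these numbers a setting. In CFUE and ERY against LSK, CMP and GMP, 15 were higher and 10 lower, beside 39.0% and 17.6% of all genes. Among the higher were Gata1 (1.73, SE 0.25, limma adjusted p = 3.3e-06), the GATA factor of red cells, and Klf1, an erythroid factor, as well as corepressor genes such as Kdm1a, Rcor1, Hdac1 and Hdac2. Among the lower were the ETS factor genes Erg and Fli1 and the paralogs Tal2, Lmo1, Lmo3, Ldb2 and Zfpm2. The median difference of the list was 0.26, that of the 7 members 0.49 and that of all genes 0.30. In MON and NEU 5 were higher and 7 lower, beside 13.9% and 12.8% of all genes, with Gata1 at 0 peaks in all 4 libraries. In MEP against GMP, Gata1, Klf1 and Cbfa2t2 were higher and Ldb2 lower, beside 4.35% and 2.38% of all genes. Against CFUMK and iMK, 14 of the 35 were higher in CFUE and ERY and 11 lower, beside 36.4% and 16% of all genes. In G1E-ER4+E2 against G1E the shared fit, which made false calls between the lines on simulated data, gave 3 higher and 5 lower, beside 11.5% and 4.92%. CFUMK and iMK gave no call in either direction against LSK, CMP and GMP.

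The genes whose scaled numbers over the 12 type means were most like those of each member are given with Pearson's r, as a description over 15106 genes that share libraries and list lengths. They were Gdap1l1 (0.986), Fam131a (0.985) and Pigq (0.982) for Tal1, Ankrd34a (0.979), Shld1 (0.978) and Rps21 (0.978) for Lyl1, and Pip5k1a (0.991), Sptbn4 (0.986) and Zbtb22 (0.985) for Tcf3. For Lmo2 they were Fam122a (0.965), Ggnbp1 (0.913) and Cd14 (0.912), and for Ldb1 Hsd17b14 (0.954), Tmem120b (0.947) and Psmc3ip (0.943). For Cbfa2t3 they were Zfp217 (0.984), Stk40 (0.976) and Commd8 (0.972), and for Zfpm1 Mboat4 (0.984), Pip4k2c (0.983) and Ubqln4 (0.982). The lines had the shortest lists and high scaled numbers, as for Zfpm1, which reached 49.99 peaks per 100000 in G1E and at most 20.5 in primary libraries.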

How the data were processed

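Peaks were read from 24 lists, 2 for each of 12 types. The authors cut reads to 30 bp, mapped them with Bowtie 0.12.8 on mm10, dropped mitochondrial and unplaced sequence and called peaks of at most 150 bp library by library with HOMER, and their notes also name SAMtools 1.6, bedtools and bcl2fastq. The deposited lists hold an unnamed score per peak, which was used only to rank peaks within a list, and an unnamed whole number, which was not used. Groups follow the labels. The members and gene lists were chosen with earlier results of these data known.

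Reproducible peaks overlapped by 1 bp or more. For each of 21938 protein-coding genes of GENCODE vM21 the called peaks over the body and flanks of 20 kb were summed, scaled per 100000 peaks with a prior of 1 peak, and fitted in limma 3.58.1 (R 4.3.3, trend and robust variance, 12 group means that share one spread) for the 17042 genes that averaged 3 or more peaks. The 6 comparisons were adjusted by Benjamini-Hochberg over all genes tested, two-sided, at 0.05. Elements were named from among the promoters, those in 11 or 12 types and the strongest per class. Those in at most 3 types that include CFUE, ERY or a line were a further source. Not every element of these classes is described. Others were chosen after their types were seen. Similar genes were the 3 with the highest Pearson's r over type means, among genes that averaged 5 or more peaks. Gene lists and markers were written from general knowledge. The functions for intervals and the fit were tested on simulated data, in which the shared fit made false calls between the lines, so calls of that comparison were not relied on. Sequences come from GRCm38, whose chromosomes hold all peak ends. Alternatives were other windows, priors, filters and scalings, reproducible or distal peaks, fits with fewer groups and each replicate left out. Python 3.11.15 was used with numpy 2.4.6, pandas 2.3.3 and matplotlib 3.10.9. An element near Tal1 was counted but is neither described nor drawn here. The labels give each library its own number and share none between groups, so libraries were not paired by replicate. The numbers of 7 types fall into 2 sequences (842 to 848 and 850 to 856), which the labels do not explain, and a fit with the sequence as a term was 1 of the alternatives.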

Additional observations from a re-analysis of the deposited data

How the results depend on the processing

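Peak lists limit depth: an absent peak was not detected at the depth of that list, and the lines had the shortest lists. Of 306 alternatives for the 14 called member differences, 250 kept direction and side of the threshold, 55 kept direction and missed it, and 1 reversed, Tal1 in CFUE and ERY against LSK, CMP and GMP with distal peaks (-0.25). The cause of this reversal was not tested. The setting with reproducible peaks keeps in each library only peaks that overlap one of its partner library. This makes the 2 libraries of a type alike and narrows the spread, and 14041 of 15820 genes passed in erythroid against multilineage. Passing in that setting is therefore no support for a call. Numbers below are given in the order of the 6 comparisons: erythroid against multilineage (5 members, 9634 genes), megakaryocytic against multilineage (0, 39), innate against multilineage (2, 4548), erythroid against megakaryocytic (4, 8929), MEP against GMP (1, 1147) and G1E-ER4+E2 against G1E (2, 2798).

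Members passing in erythroid against multilineage numbered 2 with median scaling and 3 with an equal number of peaks, and in megakaryocytic against multilineage 2 with reproducible peaks. In innate against multilineage they numbered 5 with reproducible peaks, 1 with only the groups compared, 0 among libraries 1196 to 1200, which hold 1 progenitor library, and 1 without both NEU libraries. In erythroid against megakaryocytic they numbered 7 with a 50 kb window, 1 with median scaling, 7 with reproducible peaks, 2 with distal peaks and 0 without both iMK libraries. In MEP against GMP they numbered 0 with 10 kb, 0 with 50 kb, 5 with an equal number and 2 with reproducible peaks. In G1E-ER4+E2 against G1E they numbered 1 with 10 kb, 1 with 50 kb, 1 with median scaling, 0 with only these groups and 1 with neither trend nor robust variance. With each replicate left out they ranged from 3 to 6, 0 to 0, 1 to 3, 4 to 5, 0 to 0 and 0 to 2.

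Genes passing with a mean of at least 10 peaks numbered 4341, 0, 2046, 3992, 515 and 1396. With reproducible peaks they numbered 4900, 12604, 13887, 8852 and 7946 in all but the first comparison, and with distal peaks 5003, 1, 1927, 4421 and 720 in all but the last. In megakaryocytic against multilineage they numbered 21 with 10 kb, 0 with 50 kb, 0 with a prior of 0.5, 118 with a prior of 3, 80 with no filter, 68 with median scaling, 864 with an equal number of peaks, 575 with only the groups compared, 25 in the 7 types numbered together, 11 with the number sequence as a term and 2 without both iMK libraries. In innate against multilineage they numbered 49 among libraries 1196 to 1200 and 2340 without both NEU libraries, and in erythroid against megakaryocytic 5895 without both iMK libraries. In MEP against GMP they numbered 4147 with an equal number, 3149 with only the groups compared, 2195 in the 7 types and 2228 with the number sequence as a term, and in the lines 15 with only these groups. With each replicate left out they ranged from 7471 to 9667, 0 to 21, 2382 to 6417, 6857 to 9160, 258 to 514 and 1968 to 2599. Median scaling gave 1612 higher and 2798 lower in innate against multilineage (2371 and 2177 before), 3330 and 4035 in erythroid against megakaryocytic (6210 and 2719), 543 and 1019 in MEP against GMP (742 and 405) and 943 and 1055 in the lines (1959 and 839).

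The 176 elements numbered 149 to 238 under the other definitions, 171 without NEU and iMK, and 176 to 187 with each replicate left out. Promoter calls numbered 159 to 160 with each replicate left out. Leaving out both iMK or both NEU libraries was chosen after seeing the data.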

Other observations

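The windows also held 19 elements at promoters of other genes. Around Tal1 the promoter of Pdzk1ip1 at 32.6 kb was called in CFUE, ERY, CFUMK, iMK, MEP, LSK, CMP and GMP, another at 32.3 kb in 5 types, and 1 at 34.4 kb in CFUE and ERY. MON and NEU had none of these 3 elements. Next to Cbfa2t3, elements at 87.2, 87.6 and 88.0 kb lay at the shared promoter region of Galns and Trappc2l, and that at 87.6 kb was called in all 12 types.

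Of the 176 elements, 5 were called in MON or NEU and in none of the other 10 types (2.84%, against 3.55% of all elements). At Cbfa2t3 there were 3 NEU elements at -5.7 kb (67.7 and 32.5), -2.9 kb (75.4 and 76.9) and -2.5 kb (55.5 and 38.7) and 1 MON element at 3.5 kb (95.9 and 93.5), and Tcf3, whose E proteins are also needed in B cells, had 1 NEU element at 3.8 kb (77.6 and 78.1). Both NEU libraries had called promoters for 10 of 10 B cell genes, and the part of such cells in these elements was not tested. An intron element of Zfpm1 at 31.4 kb was called in G1E-ER4+E2 (74.5 and 71.8) and G1E (79.6 and 82.1) and had no peak in any of the 20 primary libraries.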
